A study of Mus musculus with 15 samples.

Results

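Meis1, Pbx3, Mef2c, Myb, Zeb2 and Runx2 are 6 transcription factors, encoded outside the HoxA cluster, that leukemias driven by MLL fusion proteins are known to depend on. The members are fixed by name, with earlier results of these data known, and all 6 were found in each of the 4 deposited tables, which together list 20723 gene names. Expression was measured by poly(A) RNA sequencing of whole bone marrow from leukemic C57BL/6 mice, in 15 libraries that form 5 groups of 3. Group 36N (GFI1 36N/36N) carried the 36N variant of human GFI1 at the mouse Gfi1 locus, group KD (GFI1 KD/KD) expressed human GFI1 at 10 to 20% of the usual level, and group 36S (GFI1 KI/KI) carried human GFI1 at the same locus. By the sample labels, every group therefore had an altered locus, and no group with an unmodified mouse Gfi1 gene was analysed here. Libraries 4 to 6 were 36N, 7 to 9 KD and 1 to 3 36S. The deposited columns of the untreated 36S libraries are headed WT, and they were matched to 36S by their numbers 1 to 3. The other groups were 36N TMZ (libraries 4 to 6) and 36S TMZ (1 to 3), in which leukemic marrow cells had been exposed to temozolomide (TMZ), a DNA-methylating drug, at 50 µg/ml for 20 h. In all groups a retrovirus had brought MLL-AF9 and GFP into lineage-depleted donor cells, which were sorted for GFP and put into mice irradiated with 7 and 3 Gy. The leukemias were then passed through mice given 3 Gy, and the marrow of quaternary recipients, which still holds host cells, was sequenced. The sources used here give neither the ages of the mice nor whether those of a group carried separate primary leukemias. Sample titles number MLL-AF9 as 1 to 3 in 36S but as 1 in all 36N and KD libraries, and the meaning of this number is not given. The p-values therefore measure only the spread between these libraries.

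MLL-AF9 joins the chromatin-binding end of MLL to AF9, a protein that recruits elongation factors, and it keeps genes of early blood progenitors switched on. Meis1 and Pbx3 are TALE homeobox proteins that bind DNA together with HOX proteins such as HOXA9. Mef2c is a MADS-box activator that acts in lymphoid and myeloid progenitors and in leukemia stem cells. Myb drives proliferation and holds back the differentiation of progenitors. Zeb2 is a zinc finger repressor needed by several myeloid lineages, and Runx2, best known from bone formation, is a Runt-domain factor that pairs with Cbfb. GFI1 itself is a zinc finger repressor that steers progenitors between granulocytes and monocytes.

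Values were the authors' normalized counts, whose column totals lay between 11265945 and 24264818, and the read depth before normalization is unknown. For a given library the tables differed by a factor particular to each gene. In the 36N libraries the factor between the TMZ table and the untreated table was, relative to the median gene and on the log2 scale, from -0.42 for Zeb2 to 0.39 for Runx2. Levels were therefore set side by side only within a table, and never between genes. The 36S values were identical in both untreated tables, so KD and 36N could be compared too, and the 36N and KD comparisons share the same 36S libraries. Marrow was a mixture of cells, and in such samples fewer cells of a type and less RNA per cell cannot be told apart. All 6 markers of MLL-AF9 leukemia, which include the member Meis1, were detected. Their summed count was 9497 to 11670 in 36N, 14692 to 16767 in KD and 11068 to 12147 in 36S. The markers did not move together. Against 36S, at a limma adjusted p under 0.05, 2 were higher and 1 lower in KD, and 0 higher and 1 lower in 36N. The lower marker was Kit (log2 fold change -1.55 in KD and -1.81 in 36N). Shares over all genes are given below. Library 36S 1 stood apart, with a summed count of neutrophil markers of 57121, against 3355 to 7280 in the other 36S libraries.

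The genes lie on 5 mouse chromosomes in mm10 (GENCODE M21). Pbx3 spans chr2:34171457-34373142 and Zeb2 spans chr2:44983632-45117395. Myb is at chr10:21124935-21160984, Meis1 at chr11:18879817-19018985, Mef2c at chr13:83504034-83667080 and Runx2 at chr17:44495987-44814797. Mef2c is on the forward strand and the others are on the reverse strand. The last 100 bases before the annotated transcript start are shown for the members with the largest fold changes after TMZ, Mef2c and Runx2, and for those with the smallest, Myb and Meis1. They are read 5′ to 3′ on the gene's own strand from RefSeq promoters of GRCm38.p6. RefSeq starts can differ from the ends of the GENCODE spans above. The Runx2 window lies wholly inside its GENCODE span, and the Meis1 window overlaps the end of its span. Capitals mark matches, on either strand, to core motifs of members or of GFI1.
Mef2c, chr13:83503934-83504033, forward: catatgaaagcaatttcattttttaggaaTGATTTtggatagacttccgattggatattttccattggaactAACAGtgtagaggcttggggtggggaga
Runx2, chr17:44814628-44814727, reverse: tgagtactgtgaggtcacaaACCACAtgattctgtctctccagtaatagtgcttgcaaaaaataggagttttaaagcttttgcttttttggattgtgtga
Myb, chr10:21160985-21161084, reverse: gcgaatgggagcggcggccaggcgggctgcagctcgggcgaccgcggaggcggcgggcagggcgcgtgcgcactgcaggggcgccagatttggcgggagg
Meis1, chr11:19018970-19019069, reverse: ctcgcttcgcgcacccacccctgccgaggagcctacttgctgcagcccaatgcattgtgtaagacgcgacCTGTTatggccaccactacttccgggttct
The Mef2c window holds TGATTT, the reverse complement of AAATCA, a core letter string of GFI1 sites, at positions -71 to -66 before the start, and AACAG, which fits the MYB core AACNG, at -28 to -24. The Runx2 window holds ACCACA, the reverse complement of the RUNX core TGTGGT, at -80 to -75. The Meis1 window holds CTGTT, a reverse MYB core, at -30 to -26, and its promoter holds TGTGGT again at -166 to -161. The Myb window holds none of the strings searched. Over 32851 windows of 250 bases before annotated starts, the GFI1 string was found in 12.4%, the RUNX core in 4614 windows (14.0%) and the MYB core in 74.2%, counting both strands. The MEIS string TGACAG, the ZEB string CACCTG, the MEF2 string TATTTA and the PBX string TGATNNAT, in 15.9, 17.2, 12.7 and 7.7% of windows, had no match in the 250 bases before any of the 10 starts annotated for the 5 members in the table. These matches describe letters and are not binding sites. Base composition differed widely: GC made up 33.6% of the 250 bases before this Mef2c start, lower than in all but 3.5% of windows, 44.8% for Runx2, 59.6% for Meis1 and 81.2% for Myb, against a median of 52.4%. Mef2c has 3 starts and Zeb2 has 4 in this table, and which start the leukemic cells use was not measured. Before the other Mef2c starts GC made up 44.8 and 49.6%, and the GFI1 string had no match there.

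**Figure D1:**
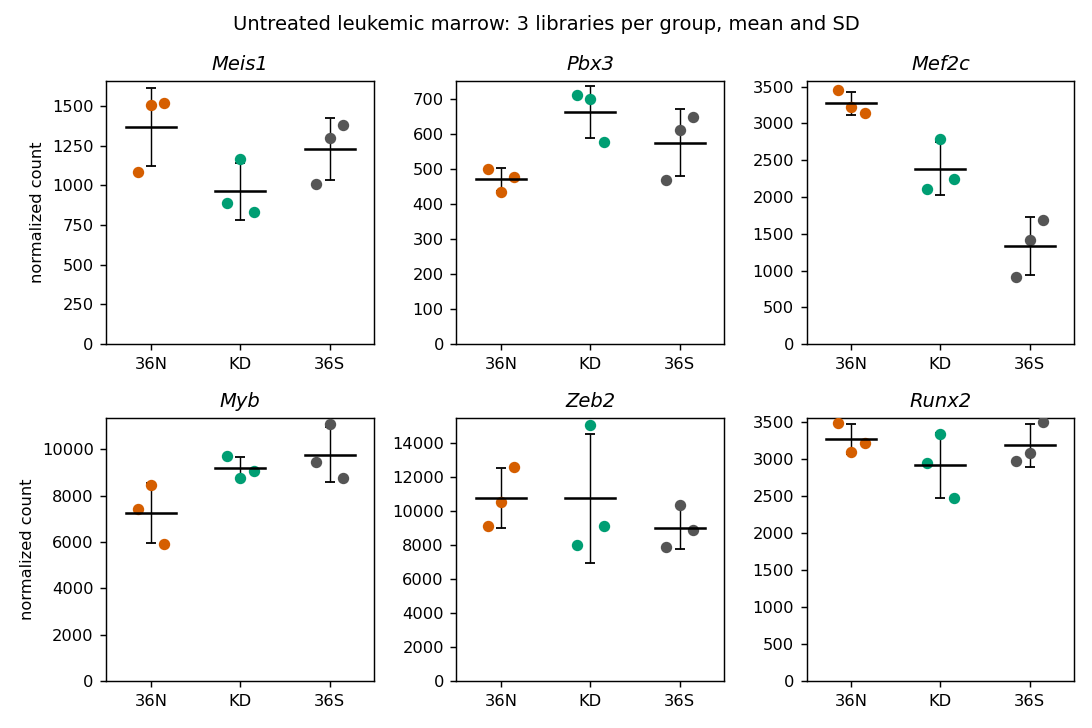
Normalized counts (linear axes from 0) of the 6 transcription factors in untreated marrow. Points are libraries of 36N, KD and 36S, and the bars show the mean and SD of 3. Mef2c is the panel in which 36N (3144 to 3449) and KD (2110 to 2790) both lie clear above 36S (907 to 1683).

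The comparison of 36N with 36S asked how untreated leukemic marrow of these groups differed. Whether the mice of a group carried separate primary leukemias is not given, so a difference cannot be assigned to the GFI1 form alone. Mef2c was 3449, 3229 and 3144 in 36N, against 907, 1415 and 1683 in 36S. All 3 36N libraries were high and close together, the 36S libraries were low and spread, and the groups did not overlap. Its mean was 3274 ± 157 in 36N and 1335 ± 394 in 36S (SD, n = 3 each), a log2 fold change of 1.34 (SE 0.20, 95% interval 0.89 to 1.79, limma adjusted p = 0.0071). Mef2c was the only member called at an adjusted p under 0.05 out of 6, where 4.56% of 13137 genes tested were called, 2.55% as higher and 2.01% as lower. Without library 36S 1, the lowest 36S library, the log2 fold change of Mef2c was 1.08, and with each library left out in turn it was called 6 of 6 times.

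The HOX cofactors did not pass the test. Meis1 was 1083, 1503 and 1518 in 36N, against 1010, 1298 and 1378 in 36S, and the groups overlapped (log2 fold change 0.15, 95% interval -0.23 to 0.53, adjusted p = 0.642). Pbx3 was 501, 436 and 478 in 36N, against 469, 611 and 649 in 36S. Libraries 36S 2 and 36S 3 lay above every 36N library, and 36S 1 lay among them (log2 fold change -0.28, adjusted p = 0.331).

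Myb was 7424, 8467 and 5892 in 36N, against 9452, 11107 and 8771 in 36S. Every 36N library was lower than every 36S library, yet the difference did not pass (log2 fold change -0.44, 95% interval -0.78 to -0.09, adjusted p = 0.153). Zeb2 was 9132, 10535 and 12613 in 36N, against 7858, 10335 and 8861 in 36S (log2 fold change 0.25, adjusted p = 0.382). Runx2 was 3485, 3093 and 3209 in 36N, against 2962, 3070 and 3499 in 36S. Runx2 was the member with the narrowest interval (log2 fold change 0.04, 95% interval -0.20 to 0.28, adjusted p = 0.86).

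Among relatives of the members, of 7 TALE homeobox partners tested, 1 rose, Tgif1, a TALE repressor, with 212 ± 30.4 in 36N and 61.4 ± 34.7 in 36S (log2 fold change 1.92, adjusted p = 0.0253), and 0 fell. Of 8 paralogs and partners tested, among them Mef2a, Mef2d, Runx1, Runx3 and Zeb1, 0 rose and 0 fell. Of 9 HoxA genes tested, Hoxa5 fell to 233 ± 100 in 36N, against 965 ± 30.4 in 36S (log2 fold change -2.13, adjusted p = 0.0034), and 0 rose. The median log2 fold change of all genes was -0.01.

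Other known targets of MLL fusions went both ways: of 8 tested, 2 rose and 2 fell. Flt3, a growth factor receptor of progenitors, was 1753, 2272 and 1106 in 36N, against 209, 482 and 777 in 36S, so the groups did not overlap (log2 fold change 1.94, adjusted p = 0.0367). Bcl2, which blocks apoptosis, rose by 0.80 on the log2 scale (adjusted p = 0.005). Lmo2, a bridging protein of blood transcription complexes, fell by 0.67. Of 14 MLL cofactors, 0 rose and 0 fell.

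Genes reported as targets of the members were counted by the same test. Of 5 MEF2 targets, Klf2 (log2 fold change 0.96) and Klf4 (1.23), zinc finger factors of quiescent lymphocytes and monocytes, rose and 0 fell. Of 5 MYB targets, Bcl2 rose, and Kit (-1.81), the stem cell factor receptor, fell together with the granule genes Mpo (-1.48) and Elane (-1.25). Of the 2 genes known to be repressed by Zeb2, Id2, an inhibitor of E proteins, rose by 1.09, and Cdh1 did not pass. Of 6 MEIS1 targets tested, Flt3 rose and 0 fell. Beside these values, 2 of 4 granulocyte-monocyte progenitor markers fell, Elane and Mpo among them, and the summed count of the list was 35824 to 44351 in 36N and 64143 to 143215 in 36S. Of 6 monocyte and macrophage markers 2 rose, Cx3cr1 (1.47) and Lyz2 (0.91), and their summed count was 49326 to 56204 in 36N and 39515 to 44488 in 36S. Of 3 stem and progenitor markers tested 1, Kit, fell. None of the granulocyte-monocyte progenitor and monocyte markers was at 0, and their part in the Mef2c result was not tested. With each of the 6 libraries left out in turn, Mpo was called 1 time, Tgif1 2 times, and Flt3, Lmo2 and Kit 3 times each.

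The KD group, with a low dose of GFI1, was compared with 36S in the same way and with the same limit. Mef2c was 2110, 2790 and 2245 in KD, against 907, 1415 and 1683 in 36S. The KD libraries all lay above the 36S libraries, with the lowest KD library 7 nearest to 36S 3. The mean was 2381 ± 360 in KD and 1335 ± 394 in 36S (SD, n = 3 each), a log2 fold change of 0.87 (SE 0.22, 95% interval 0.38 to 1.36, adjusted p = 0.033). Mef2c was again the single member of 6 called, where 11.5% of 13109 genes were called, 6.61% as higher and 4.86% as lower. With each of the 6 libraries left out in turn, the log2 fold change was 0.61 to 1.06 and the adjusted p was under 0.05 only without 36S 3 (adjusted p from 0.0222 to 0.0986 over the 6). With libraries scaled to equal totals, which moved the median of all genes to -0.13, the log2 fold change of Mef2c was 0.75 (adjusted p = 0.0908).

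The remaining members did not pass in KD. Meis1 was 888, 1169 and 833 in KD, against 1010, 1298 and 1378 in 36S, and only KD 8 reached into the 36S range (log2 fold change -0.35, adjusted p = 0.232). Pbx3 was 712, 700 and 579 in KD, against 469, 611 and 649 in 36S (log2 fold change 0.21, adjusted p = 0.465). The KD and 36S libraries of Pbx3 overlapped.

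Myb was 9714, 8768 and 9079 in KD, against 9452, 11107 and 8771 in 36S, with KD inside or just under the 36S range (log2 fold change -0.08, 95% interval -0.42 to 0.25). Zeb2 was 8009, 15079 and 9120 in KD, against 7858, 10335 and 8861 in 36S, and library KD 8 alone was far above the rest (log2 fold change 0.20, SE 0.24, adjusted p = 0.638). Without KD 8 the log2 fold change of Zeb2 was -0.07. Runx2 was 2935, 3335 and 2463 in KD, against 2962, 3070 and 3499 in 36S, and the groups overlapped (log2 fold change -0.13, adjusted p = 0.626).

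Beside the KD values, all 6 of 6 monocyte and macrophage markers rose, with a summed count of 85093 to 136853 in KD and 39515 to 44488 in 36S. Of 5 T and NK cell markers tested, 3 rose, with a summed count of 158 to 549 in KD and 55.2 to 149 in 36S, and of 4 granulocyte-monocyte progenitor markers 3 fell. Of 3 plasma cell markers 2 fell, with a summed count of 419 to 753 in KD and 2877 to 6077 in 36S, and of 6 neutrophil markers 2 fell. Of 4 mast cell and basophil markers tested 2 rose and 1 fell, with a summed count of 2294 to 2566 in KD and 672 to 1046 in 36S. Of 3 stem and progenitor markers tested 1 rose and 2 fell. None of the monocyte markers was at 0, and the part of these marker lists in the Mef2c result was not tested.

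Among relatives of the members, Tgif1 rose again, with 228 ± 25.5 in KD and 61.4 ± 34.7 in 36S (log2 fold change 2.03, adjusted p = 0.0085), as the only call among 7 TALE partners. Of 8 paralogs and partners 2 fell, both of the MYB family: Mybl2, a factor of dividing cells (-1.08, adjusted p = 0.0018), and Mybl1 (-1.26, adjusted p = 0.0239). Of 9 HoxA genes, Hoxa2 rose to 60.7 ± 8.67 in KD, against 25.0 ± 2.75 in 36S (1.24, adjusted p = 0.0228), and 0 fell. Of 8 other MLL-fusion targets 2 fell, among them Cdk6, a cyclin-dependent kinase (-0.84), and 0 rose. Of 14 MLL cofactors 3 fell, Aff1 (-0.82), Mllt1 (-0.71) and Dot1l (-0.50), and 0 rose. With each of the 6 libraries left out in turn, Hoxa2 and Dot1l were called 1 time each, Aff1 2 times, Mybl1 and Cdk6 3 times each, and Mllt1 4 times.

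Among reported target genes in KD, Klf2 (1.72) and Klf4 (1.68) rose as 2 of 5 MEF2 targets, and 0 fell. Of 5 MYB targets 4 fell: Elane (-1.77), Mpo (-1.74), Kit (-1.55) and Myc (-0.75). Both genes known to be repressed by Zeb2 rose, Cdh1 (1.85), at a low level of 41.9 ± 9.60 in KD and 11.8 ± 5.69 in 36S, and Id2 (1.14). Cdh1 was called 2 and Id2 4 of 6 times with a library left out. Of 6 MEIS1 targets tested, Hlf, a factor of stem cells, fell (-3.13), and 0 rose. Hlf had counts high enough for the test in only 12 of 16 alternatives, 3 of them with a library left out. Spp1, the RUNX2 target tested here, fell (-1.58).

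**Figure D2:**
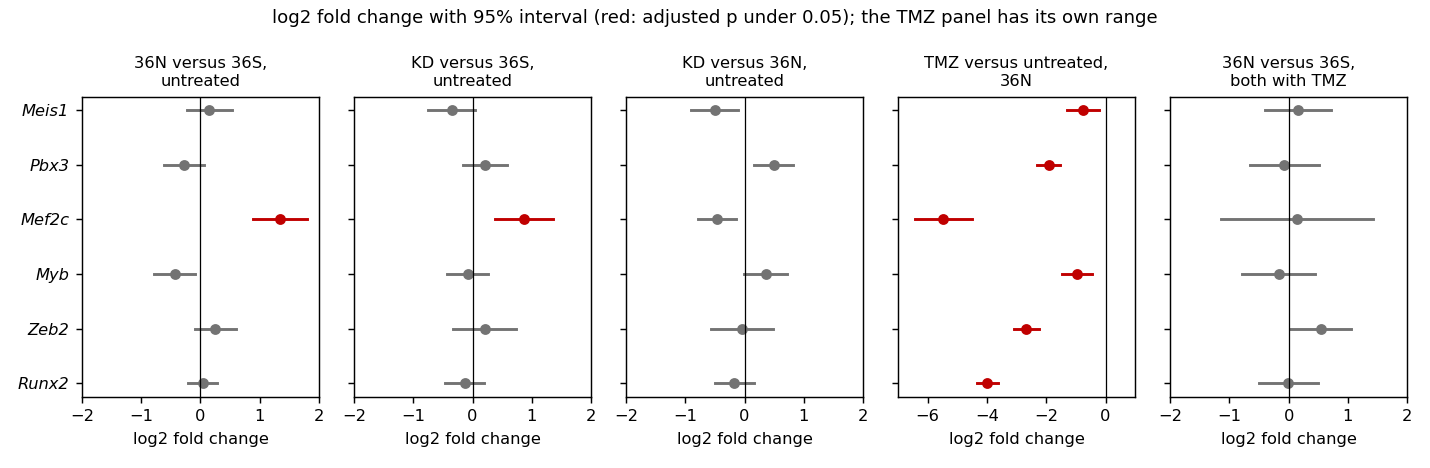
log2 fold changes (horizontal axes) of the 6 transcription factors in 5 comparisons, with 95% intervals; red points have an adjusted p under 0.05. Mef2c is the member called in both untreated comparisons with 36S (1.34 and 0.87), all 6 are called and below 0 with TMZ, and 0 are called for 36N against 36S with TMZ.

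Set directly against 36N, 0 of 6 members were called in KD, where 3.24% of 13118 genes were called, 2.03% as higher and 1.21% as lower, and 2491 genes had an unadjusted p under 0.05. Mef2c had a lower level in KD than in 36N, 2110 to 2790 against 3144 to 3449 with no overlap (log2 fold change -0.47, 95% interval -0.79 to -0.15, adjusted p = 0.116). Pbx3 had a higher level in KD, 579 to 712 against 436 to 501 in 36N, also with no overlap (0.49, adjusted p = 0.112). The Myb libraries, 8768 to 9714 in KD and 5892 to 8467 in 36N, did not overlap either. The share of all genes without overlap was not counted, so the lack of overlap is a description only. For Meis1 the log2 fold change was -0.50 (adjusted p = 0.174), for Myb 0.35 (0.279), for Runx2 -0.17 (0.558) and for Zeb2 -0.05 (0.938). The order of Mef2c levels was thus 36N, KD and 36S from high to low, and the neighbours 36N and KD were not separated by the test. Library KD 8 bears on this: without it, 1986 genes in place of 425 were called, and Mef2c (-0.59, adjusted p = 0.0112) and Meis1 (-0.65, adjusted p = 0.0338) were among them.

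Some relatives did separate KD from 36N. Flt3 was 727, 504 and 610 in KD, against 1753, 2272 and 1106 in 36N (log2 fold change -1.43, adjusted p = 0.0118). Hoxa5 was higher, 667 ± 150 in KD and 233 ± 100 in 36N (1.58, adjusted p = 0.0167), and Mybl2 was lower (-0.65). Of 5 MEF2 targets 2 rose, Jun (2.06), an AP-1 subunit, and Klf2 (0.76). Mybl2 was called 1 of 6 times with a library left out. Beside these values, of 6 neutrophil markers 4 fell, with a summed count of 2075 to 5067 in KD and 6104 to 14977 in 36N, and of 3 plasma cell markers 2 fell, with 419 to 753 in KD and 2039 to 3691 in 36N. Of 6 monocyte and macrophage markers 2 rose, with 85093 to 136853 in KD and 49326 to 56204 in 36N, and of 3 mast cell and basophil markers tested 2 rose, with 2294 to 2566 in KD and 286 to 821 in 36N. Their part in the differences between KD and 36N was not tested.

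The genes whose profile over the 9 untreated libraries was most like that of Mef2c, among 10675 with a mean of at least 50, were Lrp1, Spire1 and Mtss1. Gm and Rik gene models and genes named as pseudogenes were passed over in this ranking. Likeness was the root mean square difference of log2 profiles, each centred on its own mean. It was 0.17 for Lrp1, an endocytic receptor, with means of 3312 in 36N, 2675 in KD and 1375 in 36S. It was 0.20 both for Spire1, an actin nucleator (462 in 36N, 434 in KD and 197 in 36S), and for Mtss1, a membrane-bending protein (360 in 36N, 265 in KD and 172 in 36S). These are descriptions over the same libraries and carry no test.

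The TMZ libraries differed from untreated 36N far beyond the 6 factors. At an adjusted p under 0.05, 69.7% of 14390 genes were called, 36.3% as higher and 33.5% as lower, and the labels do not say whether the untreated cells had also been kept in culture. All 6 of 6 mast cell and basophil markers rose with TMZ, with a median log2 fold change of 9.93. Their summed count was 91955 to 258143 in 36N TMZ and 350 to 1074 in 36N, where Fcer1a, a chain of the IgE receptor, was listed at 0 in all 3 libraries. All 4 megakaryocyte markers rose (28786 to 56654 in 36N TMZ and 33.1 to 65.2 in 36N), while 3 of 6 monocyte and macrophage markers fell and 1, Adgre1, rose (19277 to 51163 in 36N TMZ and 74012 to 86999 in 36N). Of 5 T and NK cell markers tested 3 fell, among them Cd3e, which was listed at 0 in all 3 36N TMZ libraries, and 1, Nkg7, rose (3.71), with a summed count of 448 to 792 in 36N TMZ and 160 to 211 in 36N. Osteoblast and stroma markers summed to 23.0 to 46.2 in 36N TMZ and 622 to 843 in 36N. Of 2 plasmacytoid dendritic markers tested 2 fell (12.2 to 29.9 in 36N TMZ and 64.6 to 132 in 36N). Of 4 B cell markers tested 3 fell and 0 rose (170 to 268 in 36N TMZ and 560 to 664 in 36N). Of 3 plasma cell markers 2 fell and 1 rose (51.9 to 161 in 36N TMZ and 2776 to 4998 in 36N). Of 6 markers of MLL-AF9 leukemia, which include Meis1, Hoxa10 and Kit, 4 fell and 1, Kit, rose, and their summed count was 23190 to 30110 in 36N TMZ and 15753 to 18652 in 36N. Of 4 stem and progenitor markers, Kit among them, 3 rose and 1 fell, with a summed count of 12210 to 19800 in 36N TMZ and 3511 to 5657 in 36N. The part of these marker shifts in the results below was not tested, and the drug and any change in cell makeup cannot be told apart.

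**Figure D3:**
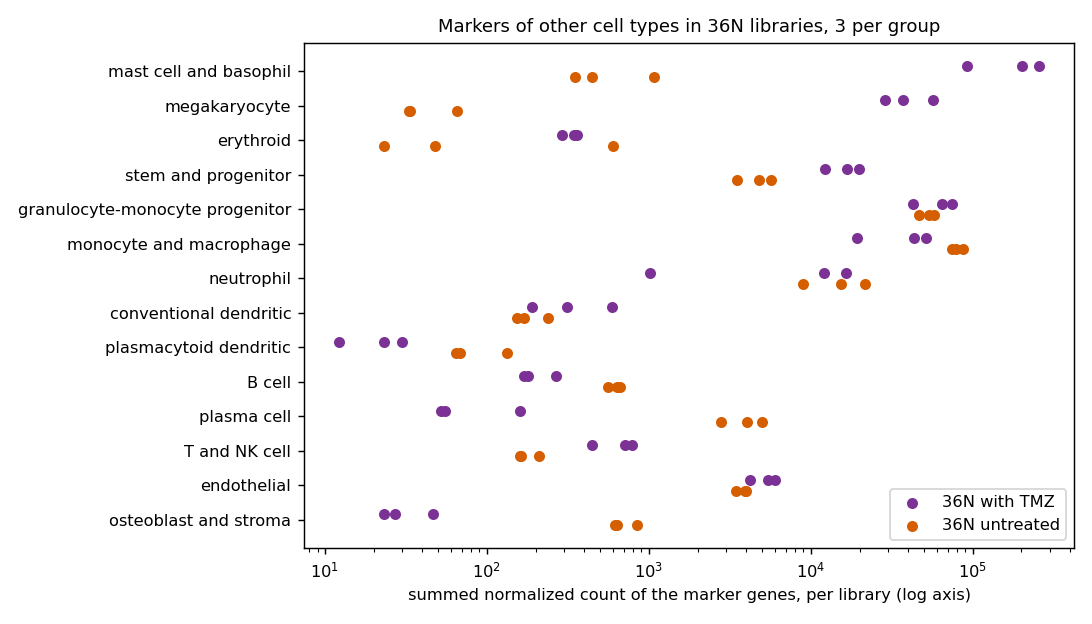
Summed normalized counts (log axis) of marker genes of other cell types in 36N TMZ libraries (upper, violet) and untreated 36N libraries (lower, orange), 1 point per library. Mast cell and basophil markers lie at 91955 to 258143 with TMZ and at 350 to 1074 without, while stroma markers lie at 23.0 to 46.2 with TMZ and at 622 to 843 without.

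**Figure D4:**
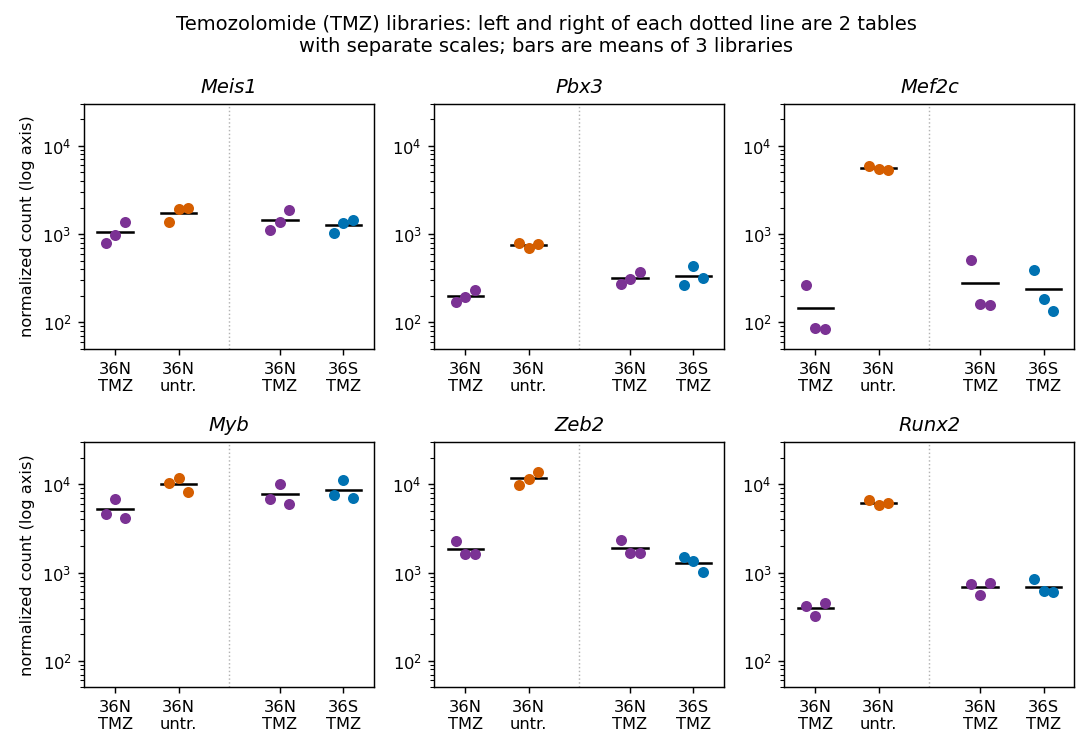
Normalized counts (log axes) of the 6 factors, 1 point per library, with bars at the mean of 3; left of each dotted line 36N TMZ and untreated 36N, right of it 36N TMZ and 36S TMZ from a table with its own scale. With TMZ, Mef2c and Runx2 sit far below untreated 36N, Meis1 and Myb just below it, and the 36N TMZ and 36S TMZ libraries lie at like levels.

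All 6 members fell with TMZ in 36N, with a median log2 fold change of -2.30, against 0.06 for all genes tested. Since 33.5% of all genes were called as lower, the count of 6 is to be read against that share. The sizes differed widely among the members.

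Mef2c was 265, 85.5 and 84.9 in 36N TMZ, against 5837, 5464 and 5348 in 36N. Even the highest treated library was far below every untreated library. The mean was 145 ± 104 in 36N TMZ and 5550 ± 256 in 36N (SD, n = 3 each), a log2 fold change of -5.47 (SE 0.41, adjusted p = 2.09e-05), which is a 44.2-fold lower level. Mef2c ranked 201 from the lowest of 14390 genes. The 36N TMZ library with the highest Mef2c, library 4, also had the lowest summed count of mast cell and basophil markers, 91955, against 202339 and 258143 in libraries 5 and 6. It likewise had the lowest megakaryocyte sum (28786) and the highest B cell and plasma cell sums (268 and 161) of its group. Its monocyte and macrophage sum, 43645, lay between those of libraries 5 and 6 (19277 and 51163). A link of Mef2c with any of these lists was not tested.

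Runx2 was 418, 318 and 446 in 36N TMZ, against 6607, 5863 and 6115 in 36N. The treated libraries were close together and far below the untreated libraries (log2 fold change -3.98, SE 0.15, 15.8-fold lower, adjusted p = 1.38e-06). Zeb2 was 2283, 1604 and 1634 in 36N TMZ, against 9903, 11422 and 13748 in 36N. All treated Zeb2 values were again below all untreated values (log2 fold change -2.67, SE 0.18, 6.38-fold lower, adjusted p = 1.35e-05).

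Of the HOX cofactors, Pbx3 was 171, 194 and 235 in 36N TMZ, against 800, 697 and 767 in 36N. These groups were well apart (log2 fold change -1.92, SE 0.17, 3.78-fold lower, adjusted p = 4.61e-05). Meis1 was 792, 989 and 1379 in 36N TMZ, against 1386, 1923 and 1953 in 36N, so that the highest treated library nearly touched the lowest untreated library (log2 fold change -0.76, SE 0.23, 1.69-fold lower, adjusted p = 0.0188). Without 36N 5, 36N 6 or 36N TMZ 4, Meis1 was no longer called, with adjusted p-values of 0.0687, 0.0648 and 0.0514, in a range of 0.00375 to 0.0687 over the 6 left-out libraries. Myb was 4609, 6881 and 4122 in 36N TMZ, against 10188, 11617 and 8128 in 36N (log2 fold change -0.96, SE 0.22, 1.94-fold lower, adjusted p = 0.0054). The treated and untreated Myb libraries did not overlap, and 25.7% of all genes had a lower fold change than Myb, against 29.6% for Meis1 and 1.39% for Mef2c.

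**Figure D5:**
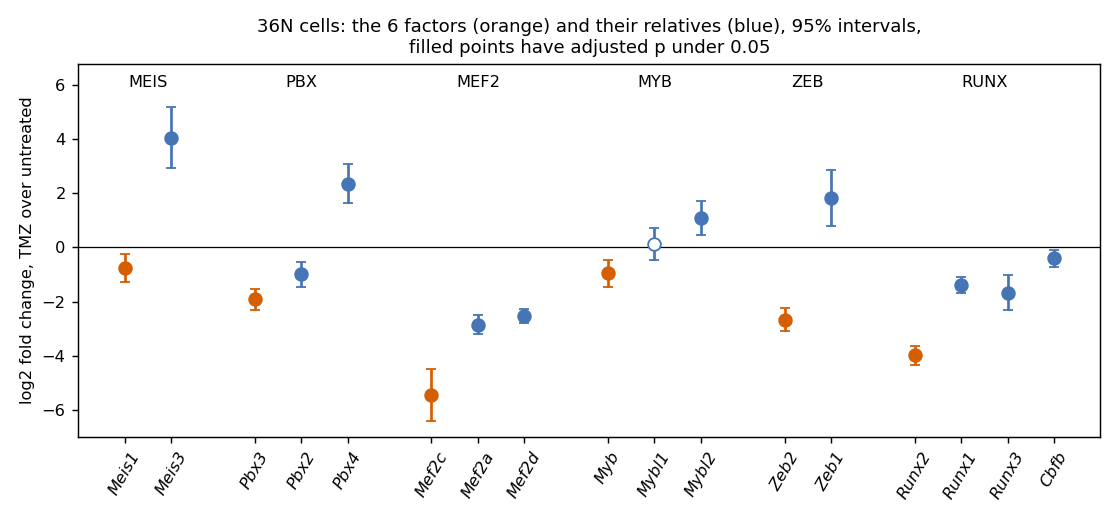
log2 fold changes with TMZ in 36N (vertical axis, with 95% intervals) of the 6 factors (orange) and of family members and partners (blue), grouped by family; filled points have an adjusted p under 0.05. The 3 MEF2 genes and the 4 RUNX and Cbfb genes all lie below 0, while Meis3, Pbx4, Mybl2 and Zeb1 lie above 0.

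Relatives of the members went both ways with TMZ. In the MEF2 family Mef2a (log2 fold change -2.86) and Mef2d (-2.54), which share DNA sites with Mef2c, fell too. In the RUNX family Runx3 (-1.67), Runx1 (-1.39) and their partner Cbfb (-0.41) fell. Opposite in direction to Zeb2 and Myb, Zeb1 rose (1.84) to 214 ± 52.8 in 36N TMZ, against 65.6 ± 43.2 in 36N, and Mybl2 rose (1.09) to 1605 ± 670, against 715 ± 48.8 in 36N. Among paralogs and partners 2 of 8 rose and 5 fell. Of 8 TALE partners tested 4 rose and 1 fell. Meis3 rose (4.07) to 154 ± 39.6 in 36N TMZ, against 9.14 ± 4.99 in 36N, and Pbx4 rose by 2.36. Pbx2 fell to 898 ± 224 in 36N TMZ, against 1766 ± 179 in 36N.

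The HoxA genes, whose proteins bind with Meis1 and Pbx3, mostly fell: of 9 tested 8 fell and 0 rose, with a median log2 fold change of -2.56. Hoxa3 (-5.17), Hoxa10 (-4.88), Hoxa4 (-3.56) and Hoxa6 (-2.78) fell most. Of 10 other MLL-fusion targets 7 fell, among them Flt3 (-7.03) and Cdk6 (-3.35), and 2 rose, among them Zfp521 (5.49), a zinc finger cofactor, which stood near 0 in untreated 36N. Of 14 MLL cofactors 7 rose and 5 fell. Kmt2a, the gene for MLL, had 68078 ± 8663 in 36N TMZ and 5782 ± 477 in 36N (log2 fold change 3.55), and Mllt3, the gene for AF9, had 15388 ± 3122 in 36N TMZ and 96.4 ± 28.8 in 36N (7.32). Men1, the MLL partner menin, rose (2.47), and Aff1 fell (-2.75). The sources used here do not say whether reads of the fusion transgene count toward Kmt2a and Mllt3.

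Reported target genes with TMZ went as follows. Of 5 MEF2 targets 4 fell, Hdac9, Klf4 (-3.81), Nr4a1 (-2.54) and Klf2, and Jun rose (2.46). Hdac9, a histone deacetylase that binds MEF2, fell to 13.6 ± 5.22 in 36N TMZ, against 1796 ± 318 in 36N. Of 5 MYB targets 3 fell, Elane (-3.32), Bcl2 (-1.86) and Myc (-1.18), and Kit rose (5.25) to 13630 ± 3681 in 36N TMZ, against 387 ± 198 in 36N. Mast cells also carry Kit, and their markers moved with it as given above. Cdh1, 1 of the 2 genes repressed by Zeb2, rose (7.36) to 5388 ± 2949 in 36N TMZ, against 30.1 ± 11.4 in 36N, and Id2 did not pass. Of 3 RUNX2 targets tested 2 rose, Spp1 (6.11) and Mmp13 (2.25), and 1, Ibsp, was listed at 0 in all 36N TMZ libraries. Of 7 MEIS1 targets 2 rose, Hlf (2.78) and Trib2 (2.72), and 3 fell, among them Flt3 and Erg (-2.13). Counts were high enough for the test in 15 of 16 alternatives for Hlf, 13 for Trib2 and 12 for Ibsp.

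The last comparison set 36N TMZ against 36S TMZ, and 0 of 6 members were called, where 0% of 14246 genes were called by limma and 191 had an unadjusted p under 0.05. Mef2c was 507, 162 and 159 in 36N TMZ, against 394, 186 and 133 in 36S TMZ. In both groups 1 library was high, and the ranges overlapped (log2 fold change 0.14, 95% interval -1.14 to 1.43, adjusted p = 1.0), so a difference as large as that of the untreated cells lies within this interval. Those high libraries, 36N TMZ 4 and 36S TMZ 1, also had the lowest mast cell and basophil sums of their groups, 137989 and 126172. They had the highest B cell (401 and 398), plasma cell (244 and 264) and granulocyte-monocyte progenitor sums (97778 and 178613) of their groups as well. Deviations of this pair were correlated over all genes, as given below, so the groups are not separate observations here. A link of Mef2c with any of these lists was not tested.

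Zeb2 was the only member whose 36N TMZ and 36S TMZ libraries did not overlap, and the share of all genes without overlap was not counted. It was 2361, 1644 and 1657 in 36N TMZ, against 1497, 1364 and 1020 in 36S TMZ, with each 36N TMZ library above each 36S TMZ library (log2 fold change 0.54, 95% interval 0.03 to 1.06, adjusted p = 1.0). Runx2 was 734, 554 and 768 in 36N TMZ, against 837, 619 and 606 in 36S TMZ (log2 fold change 0.00, 95% interval -0.51 to 0.50). The Runx2 ranges overlapped.

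Meis1 was 1100, 1361 and 1877 in 36N TMZ, against 1035, 1338 and 1444 in 36S TMZ (log2 fold change 0.16, 95% interval -0.39 to 0.72). Pbx3 was 274, 309 and 370 in 36N TMZ, against 263, 433 and 321 in 36S TMZ (-0.07, 95% interval -0.66 to 0.51). Myb was 6843, 10123 and 5996 in 36N TMZ, against 7548, 11180 and 6996 in 36S TMZ (-0.17, 95% interval -0.78 to 0.44). The ranges of all of these overlapped. Myb ran in parallel in both groups, with the highest value in 36N TMZ 5 and in 36S TMZ 2. Over 14246 genes, deviations from the group mean correlated between 36N TMZ 4 and 36S TMZ 1 (0.39), 5 and 2 (0.45), and 6 and 3 (0.35), and were between -0.24 and -0.12 for the other pairs. The labels name no link between these libraries. In a fit with these pairs as a block, chosen after seeing the data, 0 genes were again called and 781 had an unadjusted p under 0.05, and the intervals were narrower. That of Mef2c was -0.32 to 0.61 and that of Zeb2 was 0.20 to 0.88 (adjusted p = 0.891). Because the pairs were picked from the same values, these intervals cannot decide whether the untreated Mef2c difference of 1.34 remained. Within these pairs, Myb was lower in 36N TMZ 3 of 3 times, and Zeb2 and Meis1 were higher 3 of 3 times. The share of all genes with the same direction in every pair was not counted, so these directions are a description only.

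Whether the difference of 36N from 36S changed with TMZ was tested as a difference of differences. In this test 0.281% of 14584 genes were called, 0.199% as higher and 0.0823% as lower, and 0 of 6 members. At an unadjusted p under 0.05, limma gave 1014 of these genes. For Mef2c the log2 fold change of 36N over 36S was lower by 1.20 with TMZ than without (-1.20, 95% interval -2.57 to 0.18, adjusted p = 0.779). For the other members this difference lay between -0.04 for Runx2 and 0.29 for Zeb2. With the same pairs, chosen after seeing the data, as a block among the TMZ libraries, the Mef2c interval was -1.83 to -0.56. The limma adjusted p was 0.10 and 0 of 6 members were called, and this interval cannot decide the question either.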

How the data were processed

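RNA sequencing values of 15 libraries, grouped by their labels, were analysed. The 4 deposited tables hold a normalized signal: counts per gene, scaled by the authors before deposit. The submitters' processing notes name Salmon, DESeq2 and mm10, without versions or roles. Poly(A) selection is given per the labels' protocols, but nothing here gives strand use, so overlapping and antisense genes share reads in an unknown way. Whole reads could not be recovered (27.9 to 61.7% of low values were whole within 0.1), so depth and counting error are unknown.

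Values were analysed as log2(normalized count + 1), a scale that understates changes of low genes. Genes with at least 10 in at least 3 of the libraries compared were tested with limma-trend (limma 3.58.1, R 4.3.3), using only the libraries compared, and p-values were adjusted over all genes tested by the Benjamini-Hochberg method, with a threshold of 0.05. The difference of differences between 36N and 36S used 4 groups of 2 tables. All 6 members passed the filter in every comparison. The share of all genes whose groups did not overlap was not counted in any comparison, so lack of overlap is given as a description only. The procedure was tested on simulated data. TMZ in 36S was not tested, since its groups stand in separate tables.

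The members, lists and tests were chosen with earlier results of these data known. Named were the 6 members and up to 4 called genes per list and comparison by size of fold change. Also named were the 3 genes with profiles most like a member called in untreated cells, passing over Gm and Rik gene models and pseudogenes. Markers, Cd3e, Fcer1a, Ibsp and individual relatives beyond the 4 (Cbfb, Mybl2, Runx1, Klf2) were named after their values were seen. Some listed genes named by this rule are not reported here. Promoters came from RefSeq (GRCm38.p6), which held 5 of the 6 members, and gene positions from GENCODE M21. Alternatives were pseudocounts of 0.5 and 5, a filter of 50 or none, quantile normalization, equal totals, a robust prior, no trend, library weights, all 9 untreated libraries in 1 fit, each library left out, a replicate block, and, added after seeing the data, a block on pairs of TMZ libraries.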

Additional observations from a re-analysis of the deposited data

How the results depend on the processing

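Of 612 member values under alternatives, 568 kept their direction and their side of the threshold, 10 lost and 8 gained a call, and 26, all of uncalled members, changed sign. Mef2c kept its call for 36N against 36S in every alternative (1.08 to 1.53 with a library left out), and all 5 members other than Meis1 kept theirs with TMZ in 36N. With library weights 3 members were called for 36N against 36S (Pbx3 and Myb added), 2 for KD against 36S and 3 for KD against 36N. For KD against 36S, 0 members were called with equal totals and without the trend. With a library left out, members called were 1 to 1 for 36N against 36S, 0 to 1 for KD against 36S, 0 to 2 for KD against 36N, 5 to 6 for TMZ, and 0 to 0 for the difference and for 36N TMZ against 36S TMZ; the causes were not tested.

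Signs of uncalled members changed as follows. Zeb2 in KD against 36S was -0.091 with library weights, and the Meis1 difference was -0.003 with equal totals. With a library left out, log2 fold changes were -0.0086 to 0.11 for Runx2 in 36N against 36S, -0.16 to 0.012 for Myb and -0.068 to 0.39 for Zeb2 in KD against 36S, and -0.32 to 0.14 for Zeb2 in KD against 36N. With TMZ in both groups they were -0.042 to 0.34 for Meis1, -0.24 to 0.12 for Pbx3, -0.41 to 0.58 for Mef2c, -0.39 to 0.038 for Myb and -0.092 to 0.15 for Runx2. For the difference they were -0.19 to 0.19 for Meis1 and -0.13 to 0.11 for Runx2.

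A replicate block on the library numbers 4, 5 and 6 left 6 members called with TMZ. Same-numbered 36N TMZ and 36N libraries had correlated deviations of only 0.019, 0.037 and 0.086, so the numbers were not taken as a pairing; the block called 9985 genes, against 10037. All 35 list genes named for TMZ by the rule kept their calls in all alternatives in which they met the filter. Ibsp met it in 12, Trib2 in 13 and Hlf in 15 of 16. Of 12 genes for 36N against 36S only 4 kept theirs, Hoxa5, Bcl2 and Klf2 among them. Of 6 for KD against 36N 2 did, Jun among them. Of 19 for KD against 36S 9 did, among them Hlf, which met the filter in 12 of 16. Flt3 and Tgif1 in 36N lost theirs without 36S 2, 36N 4 or 36N 5, among others. Counts over all genes moved by more than 1.5 times with library weights (3304 against 599 for 36N against 36S, 4289 against 1503 for KD against 36S, 3721 against 425 for KD against 36N and 119 against 41 for the difference), with the block on pairs of TMZ libraries, chosen after seeing the data (103 against 41 for the difference) and without the trend (305 for 36N against 36S and 203 for KD against 36N). Equal totals gave 605 higher and 936 lower in KD against 36S, in place of 866 and 637, and 176 and 179 in KD against 36N, in place of 266 and 159. With a library left out the counts over all genes were 188 to 508 for 36N against 36S, 591 to 2051 for KD against 36S, 116 to 1986 for KD against 36N and 11 to 39 for the difference. With unknown depth and 3 libraries a group, small differences of Pbx3, Myb and Meis1 could not be resolved.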
